A study of Mus musculus with 4 samples.

Results

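Proteasome subunits and the ubiquitin-conjugating Ube2 enzymes were followed in mouse feeder fibroblasts treated with FGF2. The members were the array probes whose identifier carries the NCBI gene number of a mouse gene with a symbol beginning with Psma, Psmb, Psmc, Psmd, Psme or Ube2. Psmb8 was left out by that rule. There were 57 such probes among 46116 on the array, for 43 of the 8127 genes that could be matched in this way, namely 9 probes for 8 core genes (Psma and Psmb), 16 probes for 13 regulatory genes (Psmc, Psmd and Psme) and 32 probes for 22 Ube2 genes. The array files give no gene symbols, and reading the number in an identifier as a gene number is an inference. The number follows 1 zero in 29 of the probes and 2 zeros in 28.

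The proteasome is the protease complex that degrades most ubiquitin-tagged proteins in the cytosol and nucleus. Its barrel-shaped core is built of alpha rings, which gate the entrance, and beta rings, which hold the proteolytic sites. The regulatory particle of Psmc ATPases and Psmd subunits binds ubiquitin chains and unfolds the substrate, whereas the Psme activators open the core without needing ubiquitin. After interferon, some beta subunits of the core are exchanged for inducible ones, among them Psmb10, and the activator subunits Psme1 and Psme2 are made in larger amounts, which favours the production of peptides for MHC class I. Ubiquitin reaches its targets through an activating enzyme, a conjugating enzyme of the Ube2 family and a ligase. Several Ube2 members carry ubiquitin-like proteins instead, such as NEDD8 (Ube2m and Ube2f) and ISG15 (Ube2l6).

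The cells were CF1 mouse embryonic fibroblasts, the feeder layer on which human embryonic stem cells are grown. In every group they had been inactivated with mitomycin C, which stops division, seeded on gelatine (55000 cells/cm2) and held for 24 h in human embryonic stem cell medium. The 3 control arrays are biological replicates without FGF2, and there is 1 array each at 4, 13 and 40 ng/ml of FGF2, a fibroblast growth factor used to maintain human stem cells. The series asks how the feeder responds to FGF2 over this range of doses. The age and number of the embryos behind the fibroblasts are not given in the sources used here.

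The median signal was 102.5 to 113.6 per array, and 11195 to 11698 probes per array were detected, which means that their detection score was at least 0.99. The tests ran over the 11763 probes detected on at least 3 of the 6 arrays. Of the fibroblast markers, 5 of 12 could be matched to a probe, and all 5 (Dcn, Col1a1, Col3a1, Col1a2 and S100a4) were detected on all 6 arrays. The matched endothelial (2 of 2) and pluripotent cell markers (3 of 3) were detected on no array. Among 4 matched leukocyte markers Ptprc, Cd68 and Csf1r were detected on no array, while Lyz2 was detected on all 6, with a mean log2 signal of 8.07 in the controls and 7.68 with FGF2. Of 2 epithelial markers Krt8 was detected on no array, and Krt18 on the 3 FGF2 arrays and no control (mean log2 signal 7.43 and 7.24). The summed log2 signal of the fibroblast list was 61.87 to 62.62 in the controls and 55.46 to 57.91 with FGF2, where Col1a1 (log2 -2.12, adjusted p = 0.000664), Col1a2 (-2.30, 0.00177) and Col3a1 (-1.47, 0.012) fell and Dcn and S100a4 did not pass. The sum was 29.56 to 29.62 in the controls and 29.15 to 29.25 with FGF2 for the leukocyte list, and 14.39 to 14.41 against 14.55 to 14.65 for the epithelial list. The part of these shifts in the results below was not tested. In bulk RNA, fewer cells of a type and less RNA per cell cannot be told apart.

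With FGF2, 9 genes of the proteasome core and its regulatory particle rose, by small amounts with the main background correction (neqc). The inducible subunit Psmb10 and both subunits of the Psme1-Psme2 activator fell. Of the 21 proteasome genes, all of which had a tested probe, 9 rose, 3 fell and 9 did not pass the test. The 3 that fell were Psmb10, Psme1 and Psme2. The log2 change was above 0 for 6 of the 8 tested core probes and 12 of the 15 regulatory probes, against 52% of all tested probes. The 6 core probes include Psma5, which met the detection filter only through the FGF2 arrays, so its sign does not establish a rise. When the arrays were scaled to a common median, or without control replicate 2, 5 of the proteasome genes rose. In these fits 32.8% and 26.5% of all tested probes were called in either direction, in place of 36.8%. With neqc, those that rose lay between 1.08-fold (Psmd11) and 1.74-fold (Psmd8). Psmd11 is dim, and its size depended on the processing, with a log2 change of 0.12 with neqc and 0.51 in the authors' own values. Of the 15 tested Ube2 genes, 3 rose (Ube2f, Ube2m and Ube2d2a), 1 fell (Ube2h) and 11 did not pass. Taken by probe, 18 of 41 tested members were called (43.9%), 13 higher and 5 lower, at an adjusted p of at most 0.05. On 17 of the 41 probes all FGF2 arrays lay above all controls (27.5% of all tested probes did so), and on 5 of 41 they lay below (25.6% of all). The 17 probes include Psma5, with the same limit.

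These counts stand against a wide response on the array, where 36.8% of all 11763 tested probes were called, 18.4% higher and 18.4% lower, with a median log2 change of 0.01. The called share was 66.7% of the 15 regulatory probes (7 higher and 3 lower), 50% of the 8 core probes (3 higher and 1 lower) and 22.2% of the 18 Ube2 probes (3 higher and 1 lower). The shares for the core and Ube2 thus lie on either side of the share of all probes, and no test of a list against the array was made. The median log2 change was 0.11 for the core, 0.13 for the regulatory and 0.10 for the Ube2 probes. When the arrays were scaled to the same median in place of quantile normalisation, 37.9% of all called probes were higher in place of 50.1%, and the members called higher numbered 1 core, 5 regulatory and 3 Ube2 probes.

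**Figure D1:**
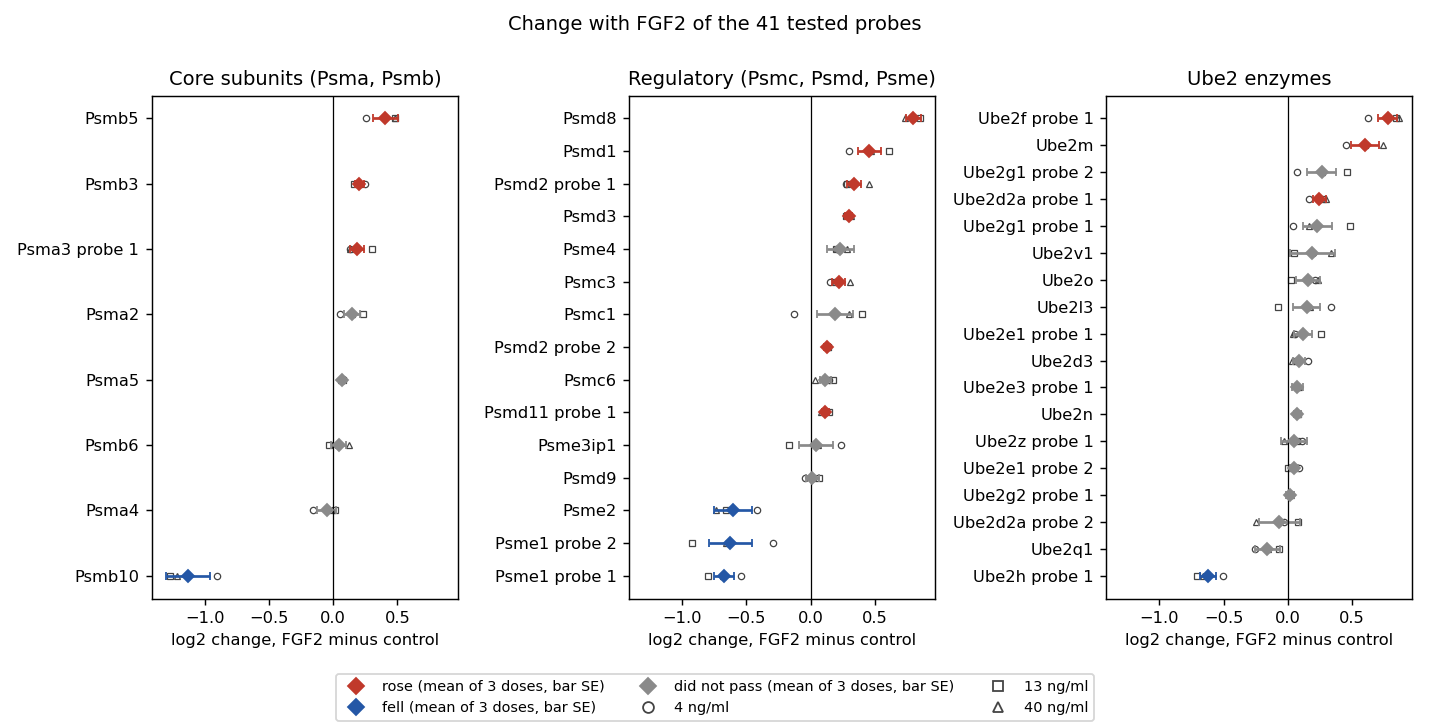
Log2 change with FGF2 of the 41 tested probes, by class, with the largest rise at the top. Diamonds are the mean of the 3 doses minus the mean of the 3 controls, with the standard error of the fit as bar, red where the probe rose and blue where it fell at an adjusted p of at most 0.05, and open symbols are the single arrays at 4, 13 and 40 ng/ml minus the control mean; Psmb10 lies lowest at -1.13 and Psmd8 highest at 0.80.

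Of the 4 alpha subunits of the core, 1 passed the test. Psma3 was at a log2 normalised signal of 13.01, 13.02 and 13.05 on the 3 controls and at 13.15 (4 ng/ml), 13.33 (13 ng/ml) and 13.16 (40 ng/ml) with FGF2. The FGF2 arrays all lay above the controls, and Psma3 rose 1.14-fold (log2 0.19 ± 0.05, SE of the fit, limma adjusted p = 0.0427). Here and below, n is 3 replicate controls against 3 FGF2 arrays, which are 1 array per dose and not replicates of 1 condition. The call of Psma3 ended in 10 of 14 alternative fits (adjusted p up to 0.121), among them those without any 1 of the controls or without the 40 ng/ml array (0.0692 to 0.12). A further Psma3 probe was not detected on any array. Psma5 was just short of the threshold (log2 0.07, adjusted p = 0.0503). It was detected on 1 control and all 3 FGF2 arrays, at 7.26 on each control and 7.32 to 7.33 with FGF2. With the 3 other background corrections it passed, at log2 changes of 0.28 to 0.43 (adjusted p = 0.00221 to 0.00704). Psma5 met the detection filter only through the FGF2 arrays, however, and its controls lay near the detection limit. These passes therefore do not establish a rise. Psma2 (log2 0.14, adjusted p = 0.127) and Psma4 (log2 -0.05, adjusted p = 0.616) overlapped between the groups.

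Among the beta subunits, Psmb5, which carries the chymotrypsin-like site of the constitutive core, was at 9.99, 9.68 and 9.83 on the controls and at 10.09, 10.31 and 10.32 with rising dose. It rose 1.33-fold (log2 0.41 ± 0.10, adjusted p = 0.0266). The call ended without control replicate 2, control replicate 3, the 13 ng/ml array or the 40 ng/ml array (adjusted p = 0.0661 to 0.0913), without the filter on dim probes (0.082) and when the arrays were scaled to a common median (0.0941). Psmb3, a structural beta subunit, was at 12.19, 12.19 and 12.11 on the controls and at 12.41, 12.33 and 12.37 with FGF2, a separation of 1.15-fold (log2 0.20 ± 0.04, adjusted p = 0.0103). Its call was lost with normexp at offsets of 50 (adjusted p = 0.0596) and 16 (0.083). Psmb6, which carries the caspase-like site, did not pass (log2 0.04, adjusted p = 0.623), and its groups overlapped, with controls at 12.35 to 12.50 and FGF2 arrays at 12.40 to 12.56. The tested core genes are 8 of the 18 that the annotation lists, and the other core genes, Psmb9 among them, were not analysed here.

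**Figure D2:**
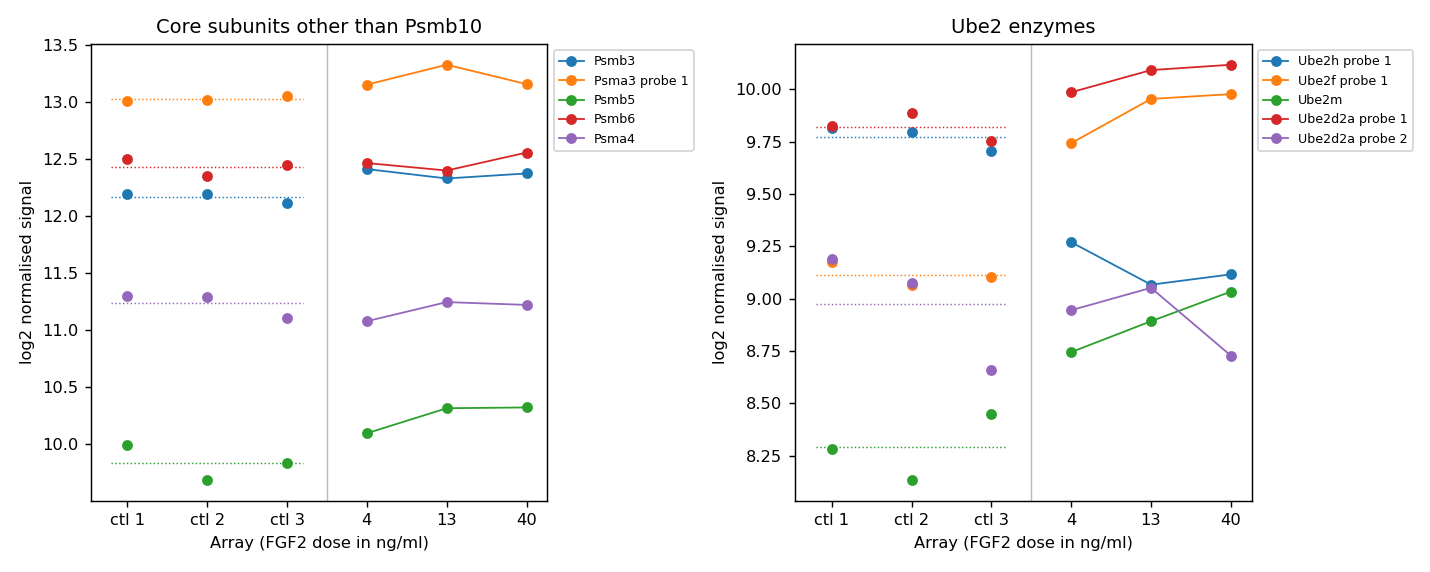
Log2 normalised signal on each of the 6 arrays for core subunits other than Psmb10 (left) and for Ube2 enzymes (right). The controls are the 3 points at the left of each panel, with their mean as a dotted line, and lines join the single arrays at 4, 13 and 40 ng/ml; Ube2f and Ube2m lie above and Ube2h below all controls at each dose, and the second probe of Ube2d2a overlaps.

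Psmb10, the inducible counterpart of the beta subunit with the trypsin-like site, showed the largest change of all tested members. It was at 9.07, 8.92 and 9.48 on the controls and at 8.25, 7.88 and 7.94 with rising dose. The highest FGF2 array was below the lowest control, and the fall was 2.19-fold (log2 -1.13 ± 0.17, adjusted p = 0.00586). Control replicate 3 was the highest, and without it the log2 change was -0.97 (adjusted p = 0.0109). The call held in all 14 alternative fits, at log2 changes down to -1.25 and adjusted p values up to 0.0283.

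Psme1 and Psme2 encode the alpha and beta subunits of the activator known as PA28, which caps the core and is inducible by interferon. The brighter probe of Psme1 was at 11.04, 10.99 and 11.15 on the controls and at 10.51, 10.26 and 10.38 at 4, 13 and 40 ng/ml. It fell 1.60-fold (log2 -0.68 ± 0.08, adjusted p = 0.00253) and kept its call in all 14 alternative fits. The dimmer probe read as Psme1 fell 1.54-fold (log2 -0.62 ± 0.17, adjusted p = 0.0369), from 10.45, 10.20 and 10.46 on the controls to 10.08, 9.45 and 9.71. Its call was lost when any array other than the 4 ng/ml one was left out (adjusted p = 0.058 to 0.11) and when dim probes were not filtered (0.116).

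Psme2 fell 1.52-fold (log2 -0.60 ± 0.15, adjusted p = 0.0272), from 9.10, 8.63 and 8.68 on the controls to 8.39, 8.14 and 8.07 with rising dose. The controls themselves spread from 8.63 to 9.10 on the log2 scale, and the call was lost on leaving out control replicate 3 (adjusted p = 0.0517), the array at 13 ng/ml (0.0841), that at 40 ng/ml (0.0921) or the filter (0.0867). The annotation also holds Psme2b, a similar gene, and which of them the probe measured was not tested. The other genes with the Psme prefix did not pass. Psme4, a nuclear activator of the core, had FGF2 arrays at 8.79 to 8.88 against controls at 8.37 to 8.79 (log2 0.23, adjusted p = 0.146). Psme3ip1, which encodes an interaction partner of the activator Psme3 and not a subunit, did not pass either (log2 0.04, adjusted p = 0.841).

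**Figure D3:**
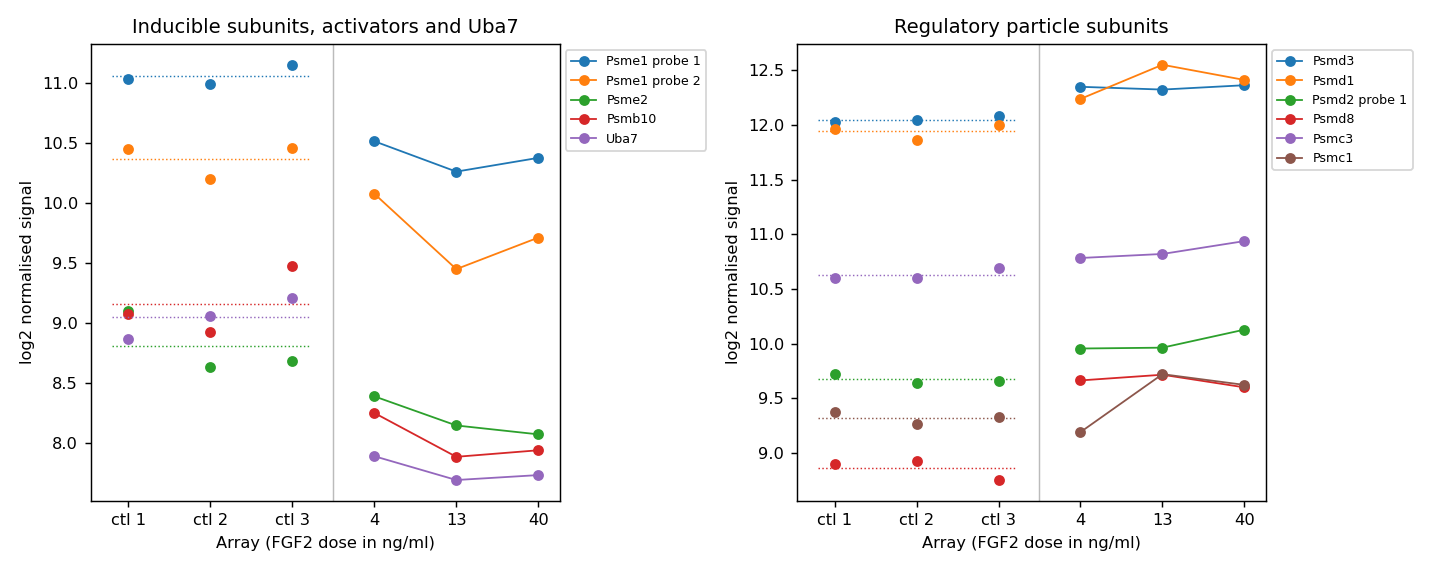
Log2 normalised signal on each of the 6 arrays for the inducible subunit Psmb10, the activator subunits and the activating enzyme Uba7 (left), and for subunits of the regulatory particle (right). The controls are the 3 points at the left of each panel, with their mean as a dotted line, and lines join the single arrays at 4, 13 and 40 ng/ml; every gene in the left panel is below its controls at each dose, and Psmc1 in the right panel is below its controls at 4 ng/ml and above them at 13 and 40 ng/ml.

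Of the 6 genes with the Psmd prefix, which encode non-ATPase subunits of the regulatory particle and, in Psmd9, an assembly factor, 5 were called higher and 0 lower (18.4% of all tested probes were called higher), with a median log2 change of 0.32. Whether this share differs from that of the other subunits was not tested. Psmd8, a subunit of the lid, was at 8.90, 8.93 and 8.75 on the controls and at 9.66, 9.72 and 9.60 at 4, 13 and 40 ng/ml. It rose 1.74-fold (log2 0.80 ± 0.06, adjusted p = 0.000822), the largest rise among the members with neqc, and held its call in all 14 alternative fits (log2 0.56 to 0.83). Psmd3, also of the lid, was at 12.02, 12.05 and 12.08 on the controls and at 12.35, 12.33 and 12.36 with FGF2. This was a rise of 1.23-fold (log2 0.30 ± 0.03, adjusted p = 0.0014) with little spread on either side.

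Psmd1, a scaffold of the base that binds ubiquitin receptors, rose 1.37-fold (log2 0.46 ± 0.09, adjusted p = 0.0118), from 11.96, 11.86 and 12.00 to 12.24, 12.55 and 12.41. Psmd2, the other large scaffold of the base, had 2 tested probes that both rose. The brighter was at 9.72, 9.64 and 9.66 on the controls and at 9.96, 9.96 and 10.13 with FGF2 (1.27-fold, log2 0.34 ± 0.06, adjusted p = 0.0077). The dimmer rose by a log2 change of 0.13 ± 0.02 (adjusted p = 0.00926), or of 0.45 with normexp at an offset of 16. The lid subunit Psmd11 rose by 0.12 ± 0.03 (adjusted p = 0.024), from 7.40 to 7.43 on the controls to 7.49 to 7.55 with FGF2, or by 0.38 with normexp at an offset of 16. The call of Psmd11 was lost on leaving out control replicate 1 or 2 or the array at 13 ng/ml (adjusted p = 0.0716 to 0.0835) and on scaling to the same median (0.133). Psmd9, a chaperone that takes part in assembling the base and is absent from the finished particle, did not pass (log2 0.01, adjusted p = 0.847).

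Of the 3 ATPases measured, Psmc3 was called. It was at 10.60, 10.60 and 10.69 on the controls and at 10.78, 10.82 and 10.94 with rising dose, a rise of 1.16-fold (log2 0.22 ± 0.05, adjusted p = 0.0239). This call was lost in 10 of 14 alternative fits (adjusted p up to 0.132), among them those without control replicate 1, control replicate 2, the 13 ng/ml or the 40 ng/ml array (0.0542 to 0.0808). Psmc6 was above its controls (7.28 to 7.30) on each FGF2 array (7.32 to 7.46) without passing with neqc (log2 0.12, adjusted p = 0.0795). It passed in 5 of 14 alternative fits. Among them were the 3 other background corrections (log2 0.38 to 0.55, adjusted p = 0.0129 to 0.0151). Its controls were detected but lay near the detection limit. Psmc1 was at 9.26 to 9.37 on the controls, at 9.19 at 4 ng/ml and at 9.72 and 9.62 at the higher doses, and did not pass over all doses (log2 0.19, adjusted p = 0.348).

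The Ube2 enzymes that passed were few, and the largest rises belonged to the enzymes that carry NEDD8, the ubiquitin-like protein that activates cullin ligases. Ube2f was at 9.18, 9.07 and 9.10 on the controls and at 9.74, 9.95 and 9.98 with rising dose. It rose 1.71-fold (log2 0.78 ± 0.07, adjusted p = 0.00148) and held its call in all 14 alternative fits, with adjusted p up to 0.00853. Ube2m was at 8.28, 8.13 and 8.45 on the controls and at 8.74, 8.89 and 9.03 with FGF2, a rise of 1.52-fold (log2 0.60 ± 0.11, adjusted p = 0.00976) that also held in all 14. A second probe read as Ube2f was detected on no array.

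Ube2h, the conjugating enzyme that works with the CTLH ligase complex, was the Ube2 gene that fell. It was at 9.81, 9.80 and 9.71 on the controls and at 9.27, 9.07 and 9.12 at 4, 13 and 40 ng/ml. The fall was 1.54-fold (log2 -0.62 ± 0.06, adjusted p = 0.00178) and held in all 14 alternative fits. Its second probe was detected on no array. Ube2d2a, a conjugating enzyme that works with many ligases, had 2 probes that disagreed. The brighter rose 1.18-fold (log2 0.24 ± 0.05, adjusted p = 0.0164), from 9.82, 9.89 and 9.75 on the controls to 9.99, 10.09 and 10.12. The dimmer had a log2 change of -0.07 ± 0.16 (adjusted p = 0.784), with controls at 8.66 to 9.19 and FGF2 arrays at 8.73 to 9.05. The call of the brighter probe was lost in 7 of 14 alternative fits (adjusted p up to 0.0892), among them those without control replicate 1, the 13 ng/ml or the 40 ng/ml array (0.0555 to 0.0601). The annotation also holds Ube2d2b, a close copy, and which of them each probe measured was not tested.

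The other 11 tested Ube2 genes did not pass, with log2 changes of their probes from -0.16 (Ube2q1) to 0.27 (the dimmer probe of Ube2g1). Ube2n, which builds chains linked through lysine 63, did not pass with neqc (log2 0.07, adjusted p = 0.0817) and passed with normexp at an offset of 16 (log2 0.27, adjusted p = 0.0431). Its variant partner Ube2v1, which lacks the active cysteine, had a log2 change of 0.19 (adjusted p = 0.448). Ube2l3, which serves HECT and RBR ligases, was at 11.21 to 11.25 on the controls and at 11.57, 11.16 and 11.41 with rising dose (log2 0.15, adjusted p = 0.321). Ube2g1, an enzyme of the degradation of endoplasmic reticulum proteins, had 2 probes with log2 changes of 0.23 and 0.27 (adjusted p = 0.174 and 0.122). For 7 of the 22 Ube2 genes no probe was tested. Among these, Ube2b, Ube2c, Ube2dnl1, Ube2l6 and Ube2v2 were detected on no array, while Ube2j2 passed the detection limit on 2 FGF2 arrays and 0 controls. The second probes of Ube2g2 and Ube2z were each detected on 1 FGF2 array and on 0 of the controls. All of these signals lay near the lowest log2 value of a detected probe (7.26 to 7.27), so the detection counts do not show a change. Ube2j2, for instance, was at 7.21 to 7.24 on the controls and at 7.24 to 7.27 with FGF2. Ube2c serves the anaphase-promoting complex in mitosis, and Ube2l6 is the conjugating enzyme for ISG15.

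Each dose was then set against the same 3 controls, so that the 3 comparisons share their controls and each rests on 1 treated array, assumed to vary like the controls. Of the 41 tested member probes, 7 were called at the lowest dose of 4 ng/ml (17.1%, against 13.9% of all probes). The count was 14 at 13 ng/ml (34.1%, against 25.7%) and then 13 at the highest dose, 40 ng/ml (31.7%, against 24.8%). By direction, all probes were called higher and lower at 7.31% and 6.57% (4 ng/ml), 13.3% and 12.4% (13 ng/ml), and 13% and 11.8% (40 ng/ml). At 4 ng/ml the regulatory calls were 3 higher and 1 lower, the Ube2 calls 2 higher and 1 lower, and 0 of 8 core probes passed in limma. At 13 ng/ml the core had 1 higher and 1 lower, the regulatory probes 6 and 2, and the Ube2 probes 3 and 1. At 40 ng/ml they were 0 and 1, 6 and 2, and 3 and 1. Without control replicate 1 the member calls numbered 0, 5 and 4 with rising dose, and with scaling to the same median 2, 5 and 4. Calls over all probes fell in these fits too. For FGF2 against control, 24.2% of all tested probes were called without control replicate 1 and 32.8% with scaling, in place of 36.8%. The shares of all probes at each dose in these fits are not given here, so the loss is not particular to the members.

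Psmd8 and Psmd3 were near their full change at the lowest dose. With rising dose the log2 change of Psmd8 was 0.80, 0.85 and 0.74, and that of Psmd3 was 0.30, 0.27 and 0.31. On the 1 array at 4 ng/ml other members changed less than at either higher dose, without passing the contrast between doses given below. With rising dose these were Ube2f (0.63, 0.84 and 0.86), Ube2m (0.46, 0.60 and 0.74) and Psmb5 (0.26, 0.48 and 0.48). Among the falls, Ube2h was at -0.50, -0.71 and -0.66. Psmb10 was at -0.91 at 4 ng/ml, where it did not pass (adjusted p = 0.099), and at -1.27 and -1.22 at the higher doses. The brighter Psme1 probe was at -0.55, -0.80 and -0.68, and Psme2 at -0.42, -0.66 and -0.73. Psme2 passed at none of the 3 doses taken singly (adjusted p = 0.0908 to 0.297).

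The slope per log2 of dose among the FGF2 arrays gave 0 calls among the 41 member probes and 0 among all 11763 (0%) in limma, with a smallest adjusted p of 0.446 among members. The unadjusted p was under 0.05 for 1 member and for 1236 of all probes. In the alternative contrast of the 13 and 40 ng/ml arrays with the 4 ng/ml array, 3.39% of all probes and 1 member passed. This was the ATPase Psmc1, higher by 0.48 on the log2 scale at the higher doses (adjusted p = 0.0384), which was also called at 13 ng/ml (log2 0.40, adjusted p = 0.02) and at 40 ng/ml (log2 0.30, adjusted p = 0.0376) against control. Ube2l3 ran otherwise, with a call at 4 ng/ml (log2 0.34, adjusted p = 0.0231) and log2 changes of -0.07 and 0.18 at 13 and 40 ng/ml, but the contrast between the doses did not pass (adjusted p = 0.245). Both probes of Ube2g1 were called at 13 ng/ml (log2 0.48 and 0.46, adjusted p = 0.0116 and 0.0472) and at neither other dose.

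The reading of the gene numbers bears on the members unequally. The calls of Psmb10, Psme2, Psmd3, Psmd8, Ube2f and Ube2h rest on probes with 2 zeros before the number, and the files do not state that such a number is a gene number. Where a gene had 2 tested probes, which was so for 5 genes, Psme1 and Psmd2 had both called in the same direction, Ube2d2a had 1 called, Ube2e1 and Ube2g1 had 0, and in 0 genes did 2 called probes move in opposite directions. Of the 14 genes with 2 probes, the other 9 had at most 1 detected well enough to be tested.

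**Figure D4:**
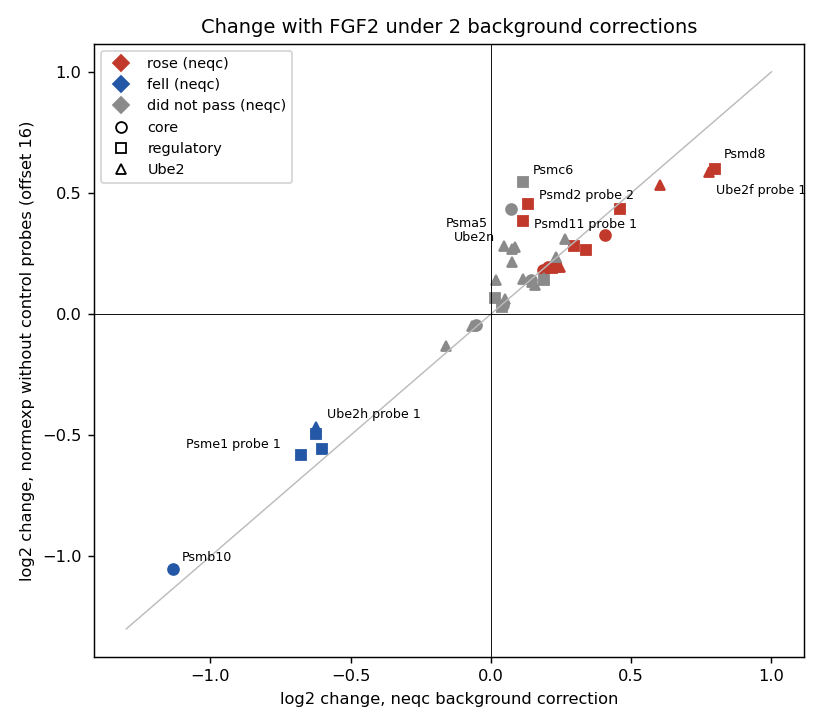
Log2 change with FGF2 of the 41 tested probes after neqc (horizontal) and after normexp without control probes at an offset of 16 (vertical); the diagonal marks equal values. Dim probes such as Psmc6, Psma5, Psmd11 and the dimmer Psmd2 probe lie above the diagonal, with Psmc6 at 0.12 and 0.55, while brighter ones such as Psmd8 lie a little below it, at 0.80 and 0.60.

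Background correction changed the size of the dim members, as the plot of both corrections shows. The standard deviation of the negative controls that neqc infers was 224 to 263 units of signal. This is above the median signal of every array (102.5 to 113.6), and probes close to the detection limit were drawn together. Whether neqc corrects too strongly here was not tested. Psma5, which missed the threshold with neqc, had a log2 change of 0.43 (adjusted p = 0.00221) with normexp at an offset of 16. It met the detection filter only through the FGF2 arrays. In the authors' own values the log2 change was 0.73 for Psma5, 0.81 for Psmc6, 0.51 for Psmd11 and 0.61 for the dimmer Psmd2 probe. That of the brighter Psmd8 was 0.69 there, smaller than with neqc. The falls of Psmb10, Psme1, Psme2 and Ube2h kept their size within 1.5 times (log2 -1.05, -0.58, -0.56 and -0.47 for Psmb10, the brighter Psme1 probe, Psme2 and Ube2h).

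Other genes around the ubiquitin system gave a background to the members. Their counts, here and in the next paragraph, stand beside 18.4% of all tested probes called higher and 18.4% lower. No list was tested against the array. Of 9 tested genes for activating enzymes and ubiquitin-like precursors, 0 rose and 1 fell. This was Uba7, the activating enzyme for ISG15, which was at 8.87, 9.05 and 9.21 on the controls and at 7.89, 7.69 and 7.73 with rising dose (2.42-fold lower, log2 -1.28 ± 0.10, adjusted p = 0.00098). The ubiquitin genes Ubb and Rps27a sat near the top of the quantile-normalised scale, with the same value on several arrays (Ubb at 15.47 on 5 of 6, Rps27a at 14.91 on all 3 FGF2 arrays), where a change could not be measured. Nae1, a subunit of the activating enzyme for NEDD8, did not pass (log2 0.22, adjusted p = 0.0547).

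Of 7 genes for assembly, inhibition and regulation of the proteasome, 0 rose and 1 fell, with a median log2 change of 0.19. The gene that fell was Nfe2l1, a transcription factor of proteasome genes, at 11.40, 11.45 and 11.44 on the controls and at 11.03, 11.24 and 11.15 with FGF2 (1.22-fold lower, log2 -0.29 ± 0.06, adjusted p = 0.014). The assembly chaperone Psmg1 (0.24, adjusted p = 0.175), the ubiquitin receptor Adrm1 (0.19, 0.109) and the proteasome-bound deubiquitinase Uchl5 (0.22, 0.0864) had positive log2 changes without passing. Of 5 genes that deliver substrates, Nsfl1c (0.19, adjusted p = 0.0212) and Nploc4 (0.23, 0.0472), both cofactors of the ATPase Vcp, rose and 0 fell, and Vcp itself did not pass (0.13, 0.231). Of 7 genes of cullin ligases, 0 rose, and the substrate receptor Fbxw7 fell (-0.11, 0.0347). Of 18 tested genes whose symbols begin like those of deubiquitinases, 6 rose and 0 fell, with a median of 0.14. Of all tested probes, 18.4% were called higher and 18.4% lower. The symbol alone does not establish the activity, and Uchl5 is counted both here and among the genes for regulation. The 6 that rose were Stambpl1 (log2 0.58, adjusted p = 0.00293), Usp47 (0.48, 0.0157), Otud6b (0.28, 0.0293), Usp19 (0.27, 0.00569), Usp10 (0.23, 0.008) and Otud3 (0.14, 0.0231).

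Promoter windows of the members were read from RefSeq on GRCm38.p6, from 250 bases before to 50 bases after the start, taking the most upstream window of each gene. A window was found for 35 of the 43 member genes. They were searched on both strands for the letters of an antioxidant response element core (TGACNNNGC, to which Nfe2l1 and its relatives bind), an interferon-stimulated response element core (2 GAAA blocks with 2 other bases between them), a gamma-activated site core (TTCNNNGAA) and an ETS site (CCGGAAGT). The last 3 motifs were chosen after the changes had been seen, and a match is a description of the letters only. The antioxidant core was in 6 of 35 member windows (17.1%), against 12.4% of 27025 windows of all genes, and in 2 of 8 core, 3 of 11 regulatory and 1 of 16 Ube2 windows. Of the 9 members that rose and had a window, 1 held it (Psmb5), as did 0 of the 4 that fell. The interferon element core was in 4 of 35 member windows (11.4%, against 3.49% of all), the gamma-activated core in 2 of 35 (5.71%, against 8.42%) and the ETS site in 4 of 35 (11.4%, against 3.99%). The windows of Psmb10 and Psme2 held none of these letters.

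Of these, 4 windows are given, of a core subunit that rose with an antioxidant core, of a core subunit that rose and an activator subunit that fell with the same interferon core, and of the most increased Ube2 gene with an ETS site. They are written 5′ to 3′ on the strand of the gene, with the match in capitals. The match starts at position -47 relative to the start in Psmb5, -163 in Psmb3, 10 in Psme1 and 16 in Ube2f. The interferon core thus occurred in a gene that rose and in a gene that fell.
Psmb5, chr14:54617946-54618245 (- strand): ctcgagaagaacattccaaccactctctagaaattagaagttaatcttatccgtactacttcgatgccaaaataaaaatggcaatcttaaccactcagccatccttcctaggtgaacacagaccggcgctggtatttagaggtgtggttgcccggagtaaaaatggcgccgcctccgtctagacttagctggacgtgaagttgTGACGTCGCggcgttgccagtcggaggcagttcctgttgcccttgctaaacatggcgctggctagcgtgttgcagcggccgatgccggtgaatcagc
Psmb3, chr11:97703184-97703483 (+ strand): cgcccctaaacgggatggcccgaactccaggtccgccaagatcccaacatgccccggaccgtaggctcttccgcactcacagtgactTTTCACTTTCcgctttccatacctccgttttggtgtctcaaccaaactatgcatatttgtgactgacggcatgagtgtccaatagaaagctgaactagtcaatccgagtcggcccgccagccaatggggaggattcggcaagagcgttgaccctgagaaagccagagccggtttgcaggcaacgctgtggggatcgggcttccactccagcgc
Psme1, chr14:55578244-55578543 (+ strand): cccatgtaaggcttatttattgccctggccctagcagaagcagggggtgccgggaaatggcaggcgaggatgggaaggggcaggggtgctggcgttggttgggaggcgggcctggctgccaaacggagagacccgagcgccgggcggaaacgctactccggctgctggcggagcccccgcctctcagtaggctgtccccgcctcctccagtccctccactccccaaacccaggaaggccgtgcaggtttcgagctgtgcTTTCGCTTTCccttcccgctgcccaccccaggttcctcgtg
Ube2f, chr1:91250054-91250353 (+ strand): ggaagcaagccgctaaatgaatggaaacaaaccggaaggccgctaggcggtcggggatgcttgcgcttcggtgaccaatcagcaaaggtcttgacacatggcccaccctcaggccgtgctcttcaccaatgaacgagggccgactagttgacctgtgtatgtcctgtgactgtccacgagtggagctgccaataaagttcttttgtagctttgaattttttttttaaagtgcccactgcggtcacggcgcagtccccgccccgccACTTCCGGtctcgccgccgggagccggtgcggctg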

How the data were processed

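Expression was measured on 6 Illumina one-colour bead arrays (300 ng of RNA, 6 h of in vitro transcription, Cy3), 3 controls and 1 array at each FGF2 dose. The deposited intensity values are mean bead signals per probe made with BeadStudio 1.0, per the submitters' processing notes, and were not background-subtracted or normalised between arrays. The detection score, a fraction, is the rank of a signal among the negative controls of its array, as deposited by the authors. Signals were corrected and quantile-normalised with neqc (limma 3.58.1, R 4.3.3; controls inferred from the scores, offset 16), and log2 values were fitted with lmFit and eBayes, two-sided, with Benjamini-Hochberg adjustment over all 11763 probes with a score of at least 0.99 on at least 3 arrays. The 3 FGF2 arrays were tested against the 3 controls, which leaves the doses' differences in the spread, then each dose and the slope per log2 of dose. The fit was also run on simulated data, with added changes larger than those of nearly all members. That run does not bear on changes of the size reported here. Replicates are called biological in the labels, and the number of arrays limits the precision. The authors' value table has medians of 254.9 to 284.5 and rises linearly with the array signals (r of at least 0.999997). How its scale was set is not stated, and it was used as an alternative only. By rule, values on every array are given for up to 5 members with the largest rise and fall past the threshold in each class, and for members near the threshold or with disagreeing probes, and pathway genes come from fixed lists. Members and lists were chosen with earlier results of these data known. Probe sequences were not used here, and coordinates are those of the RefSeq promoter windows. Some genes of the lists are counted but not reported here by name.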

Additional observations from a re-analysis of the deposited data

How the results depend on the processing

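Of the 18 called member probes, 10 kept their call in all 14 alternative fits and 8 lost it in at least 1, and none of the 18 changed sign. Scaling to the same median gave 1 core probe higher (3 with quantile normalisation), 2 Ube2 probes lower (1) and 2, 5 and 4 members called at 4, 13 and 40 ng/ml (7, 14 and 13). Without the filter on dim probes, 1 regulatory probe was lower (3) and 7 members were called at 40 ng/ml. Among probes with 1 zero before the gene number, 0 core, 1 regulatory and 0 Ube2 probes were lower and 4 regulatory probes higher (7). The contrast of 4 with 13 and 40 ng/ml called 1 member in place of 0. Leaving out 1 array gave 1 to 3 core probes higher and 1 to 1 lower, 5 to 8 regulatory probes higher and 1 to 3 lower, 2 to 4 Ube2 probes higher and 1 to 1 lower, 0 to 7 members at 4 ng/ml, 5 to 14 at 13 ng/ml, 4 to 13 at 40 ng/ml and 0 to 0 for the slope. Over all probes the calls ranged from 2598 without the 40 ng/ml array to 4991 with a trended and robust prior. The causes were not tested. Signal over background limits the dim members, whose change neqc gives as smaller than normexp does. No paired analysis was possible because each dose has 1 array and the groups share fewer than 2 replicate numbers.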
